A study of Mus musculus with 6 samples.

Results

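Sprr1a and 8 other genes linked to the injury response of the heart were followed in RNA-seq libraries from infarcted mouse ventricles. The 9 genes were picked by symbol from the 26012 genes of the deposited table. They are Sprr1a, Ankrd1, Csrp3, Fhl1, Xirp1, Xirp2, Atf3, Gdf15 and Hmox1. They were picked with results of the same 6 hearts already known, so their fold changes between the groups are given as a description and not as a test. All 9 passed the filter for testing, a mean normalized count of 1 or more, with 21126 genes in all. The fewest reads that any of them had in a heart was 567.

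The 6 hearts came from male C57BL/6 mice, 8 weeks of age, whose left anterior descending coronary artery was ligated to cause myocardial infarction (MI). Each heart received 10 μg of miRNA mimic by injection into the myocardium, control mimic in 3 hearts and a mix of miR-19a and miR-19b mimics in the other 3, the miR-19 hearts. Ventricular tissue was taken 4 days after MI, and polyadenylated RNA was sequenced. All hearts in both groups were infarcted and injected, uninjured hearts were not analysed here, and no promoter or Cre restricts a mimic to 1 cell type. Each value is a normalized count, obtained by dividing the reads on a gene by the size factor of that heart.

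The genes belong to several arms of the injury response. Ankrd1, Csrp3 and Fhl1 encode proteins that bind the titin springs and Z-discs of the sarcomere and respond to stretch, and Xirp1 and Xirp2 encode actin-binding proteins of the intercalated disc, where cardiomyocytes are joined end to end. Atf3 is a transcription factor of the integrated stress response, Gdf15 is a secreted stress cytokine, and Hmox1 encodes haem oxygenase 1, which breaks down haem and is a classic target of Nrf2. Sprr1a is best known as a cross-linked protein of the cornified envelope of skin, and it is also induced in stressed cardiomyocytes by cytokines that signal through gp130.

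The mature miRNAs that the mimics copy are shown first, because their seed decides which transcripts they can pair with. Capitals mark the seed, bases 2 to 8, which is the same in both.
miR-19a-3p: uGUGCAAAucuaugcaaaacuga
miR-19b-3p: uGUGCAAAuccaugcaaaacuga
Both are 23 bases long and differ at 1 base, position 11 from the 5′ end. In the RefSeq annotation of GRCm38.p6, miR-19a-3p lies at chr14:115044048-115044070 on the plus strand. The sequence of miR-19b-3p occurs at chr14:115044358-115044380 on the plus strand and at chrX:52741991-52742013 on the minus strand.

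A match to this seed was looked for in the longest annotated 3′ UTR of each gene. Counted as a match were TTTGCAC, which pairs with bases 2 to 8, and TTGCACA. In the latter, TTGCAC pairs with bases 2 to 7 and is followed by an A. Of the 9 genes, 1 held a match and 8 held none, against 18.4% of the 15821 tested genes with a 3′ UTR. The match was in Atf3, on the minus strand at chr1:191170935-191170963 of GRCm38, starting at base 530 of a UTR of 1186 bases, and it is shown with its flanks because it is the only one, with the matched letters in capitals.
Atf3: agatgtttgtcTTGCACAacattggcatg
The 3′ UTRs of the 9 genes had a median length of 742 bases, against 1103 in all tested genes with a UTR. That of Sprr1a has 306 bases and that of Gdf15 has 150 bases. No match says only that these letters are not in the annotated UTR.

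Before the results, the make-up of the hearts has to be given, since 1 heart stood apart. Reads on genes came to between 19398196 and 23645308 per heart. The 14 cardiomyocyte markers, among them Myh6, Tnnt2 and Ryr2, were detected in every heart and were all lowest in miR-19 replicate 3. Their summed normalized count was between 675014 and 883559 in control mimic hearts. It was 1215600 and 1106910 in miR-19 replicates 1 and 2, and 412884 in replicate 3, which is 0.356 of the mean of the other two. A difference between the groups in this sum was not detected (p = 1.0, two-sided exact permutation test, in which 3 hearts against 3 cannot go below 0.1). In bulk tissue, fewer cardiomyocytes and less RNA per cardiomyocyte cannot be told apart, and none of the 9 genes can be assigned to a cell type from these libraries. Therefore fold changes of genes that leaving out replicate 3 moved by over 1.5 times or to the other sign are given with and without it.

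Ankrd1 had the highest level of the 9 genes and Atf3 the lowest. Per kilobase of the deposited gene length, and as a mean over the 6 hearts, Ankrd1 had 26553 normalized counts, which is rank 22 of the tested genes. Hmox1, Csrp3 and Sprr1a followed with 6155, 5969 and 5950 per kilobase, and their order was not fixed, as Hmox1 was above Csrp3 in 2 of the 6 hearts and Csrp3 was above Sprr1a in 2. Below them came Xirp2 with 2572, Fhl1 with 2102, Xirp1 with 1355, Gdf15 with 655 and Atf3 with 324 per kilobase, and within every heart each of these was above the next. The range over all 6 hearts overlapped for Xirp2 and Fhl1, for Fhl1 and Xirp1, and for Xirp1 and Gdf15. In all, the 9 genes took between 0.450% and 0.665% of the normalized counts of a heart.

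Sprr1a was lower in all the miR-19 hearts, and by a similar amount in each. Sprr1a (ENSMUSG00000050359, chr3:92483952-92485895 on the minus strand) had normalized counts of 5637, 5829 and 5969.7 in control mimic replicates 1, 2 and 3. In miR-19 replicates 1, 2 and 3 it had 4046.5, 3857 and 3434. Every miR-19 heart was below every control mimic heart, and replicate 3, at 0.869 of the mean of replicates 1 and 2, was close to them. The group means were 5812 ± 167 (SD, n = 3) and 3779 ± 313 (SD, n = 3), so that the level with miR-19a/19b mimic was 65.0% of the control, and 68.0% without replicate 3. The log2 fold change was -0.62 (SE, the standard error, 0.11), and it lay between -0.67 and -0.56 when each heart was left out in turn.

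In limma, which models log2(normalized count + 1) for all genes together, 0 of the 9 genes were called at an adjusted p-value under 0.05, where 0% of all tested genes were called in either direction. At an unadjusted p-value under 0.05, 3 of the 9 were lower, namely Sprr1a, Xirp2 and Gdf15, where 2.63% of all tested genes were lower and 1.39% were higher, 4.01% in all. The edgeR quasi-likelihood test on the recovered reads also called 0 at the adjusted threshold, and 2 of the 9 were lower at an unadjusted p-value under 0.05, where 2.47% of all tested genes were lower and 1.49% higher. DESeq2's Wald test on the same reads called 1, Sprr1a, which was lower, where it called 0.11% of its tested genes lower and 0.00422% higher. At an unadjusted p-value under 0.05 it had 3 of the 9 lower, where 1.58% of genes were lower and 0.679% higher. The adjusted p of Sprr1a was 0.493 in limma and ranged over the 14 alternatives from 0.000209, in DESeq2, to 1.0. Without miR-19 replicate 3, limma called 1 of the 9, again Sprr1a, where 0.774% of all tested genes were lower and 1.81% were higher. At an unadjusted p-value under 0.05, Sprr1a was then lower and Csrp3 and Xirp1 were higher, where 6.08% of all tested genes were lower and 8.39% higher. Since Sprr1a was picked with this comparison in view, these calls describe the 6 libraries and are not evidence of its direction.

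**Figure D1:**
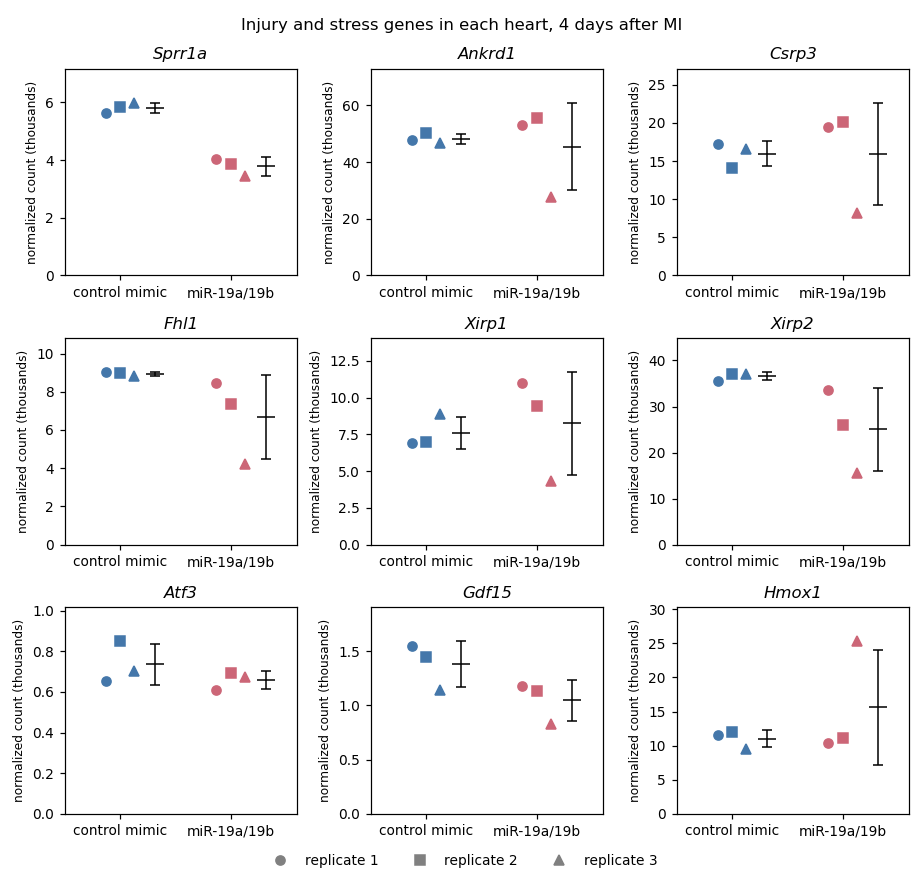
Normalized counts, on axes that start at 0, of the 9 genes in each of the 6 hearts, with circles, squares and triangles for replicates 1, 2 and 3 and a bar for the mean ± SD of 3 hearts. Sprr1a is the gene whose miR-19 hearts lie close together below the controls, while for most of the others replicate 3 lies far from replicates 1 and 2.

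The Xin proteins of the intercalated disc differed from each other. Xirp2 (ENSMUSG00000027022, chr2:67446002-67526614 on the plus strand) had 35560.0, 37131 and 37036 normalized counts in control mimic replicates 1, 2 and 3. It had 33564, 25998 and 15601 in miR-19 replicates 1, 2 and 3. All the miR-19 hearts were below the controls, but replicate 1 only by a little and replicate 3 by more than the other two. The means were 36576 ± 881 and 25055 ± 9019 (SD, n = 3 each), with a log2 fold change of -0.61 (SE 0.27) that was -0.31 without replicate 3. An antisense gene, Gm13601, overlaps Xirp2 with a mean normalized count of 2.91.

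Xirp1 (ENSMUSG00000079243, chr9:120013755-120023598 on the minus strand) had 6893, 6999 and 8860.25 normalized counts in control mimic replicates 1, 2 and 3. It had 10986, 9420.0 and 4320.4 in miR-19 replicates 1, 2 and 3. Replicates 1 and 2 were above the controls and replicate 3 was below them, so the groups overlapped. The log2 fold change was 0.02 (SE 0.31), it was 0.43 without replicate 3, and its sign was not stable over the alternatives. Xirp1 lies within the span of Cx3cr1 on the same strand, which had a mean of 781 normalized counts, so reads of the pair could be split.

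Taken within each heart, the ratio of Xirp1 to Xirp2 was 0.194, 0.189 and 0.239 in control mimic replicates 1, 2 and 3. It was 0.327, 0.362 and 0.277 in miR-19 replicates 1, 2 and 3. The ratio was higher in each miR-19 heart than in each control, including replicate 3, with means of 0.207 ± 0.0279 and 0.322 ± 0.0429 (SD, n = 3 each). Of the 36 ratios between pairs of the 9 genes, 9 had groups that did not overlap, where 9.4% of the ratios between all genes with a mean of at least 50 did not. The pairs share genes and this ratio was singled out after the values were seen, so it is a description.

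The sarcomere genes Ankrd1 and Csrp3 had group means close to each other and large spread in the miR-19 hearts. Ankrd1 (ENSMUSG00000024803, chr19:36111965-36119844 on the minus strand), a titin-binding repeat protein that also enters the nucleus, had 47825, 50272 and 46656.5 normalized counts in control mimic replicates 1, 2 and 3. It had 53267, 55412 and 27766 in miR-19 replicates 1, 2 and 3. Replicates 1 and 2 were above every control and replicate 3 was below every control. The means were 48251 ± 1845 and 45482 ± 15379 (SD, n = 3 each), and the log2 fold change was -0.15 (SE 0.29), or 0.17 without replicate 3.

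Csrp3 (ENSMUSG00000030470, chr7:48830398-48848033 on the minus strand) encodes muscle LIM protein of the Z-disc. Its normalized counts were 17226, 14142 and 16524 in control mimic replicates 1, 2 and 3, and 19429, 20112 and 8231 in miR-19 replicates 1, 2 and 3. As for Ankrd1, replicate 3 was the lowest heart and replicates 1 and 2 the highest. The log2 fold change was -0.11 (SE 0.32), and 0.31 without replicate 3.

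Fhl1 (ENSMUSG00000023092, chrX:56731787-56793346 on the plus strand), a four-and-a-half LIM protein that binds titin, had 9012, 8958 and 8834 normalized counts in control mimic replicates 1, 2 and 3. It had 8474, 7357 and 4205 in miR-19 replicates 1, 2 and 3. The miR-19 hearts were all below the controls, which were tightly grouped with a coefficient of variation of 1.02%, against 33.2% in the miR-19 hearts. The log2 fold change was -0.48 (SE 0.23), and -0.18 without replicate 3. Over the 6 hearts, Fhl1 was closest to Xirp2, with a root mean square difference of 0.086 between their log2 values after centring each gene, the smallest of the 36 pairs. The next smallest was 0.153, between Ankrd1 and Csrp3. Within each heart, the ratio of Ankrd1 to Fhl1 was 5.31, 5.61 and 5.28 in control mimic hearts and 6.29, 7.53 and 6.60 in miR-19 hearts, which did not overlap.

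Together, 3 of the 9 genes had miR-19 hearts that were all below the controls, namely Sprr1a, Fhl1 and Xirp2, and 0 had hearts that were all above. Among all tested genes, 5.3% were apart in the lower and 3.9% in the higher direction, 9.2% in all. The 9 genes had 7 negative and 2 positive log2 fold changes with a median of -0.15, where 49.2% of all tested genes were negative and their median was 0.00410.

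**Figure D2:**
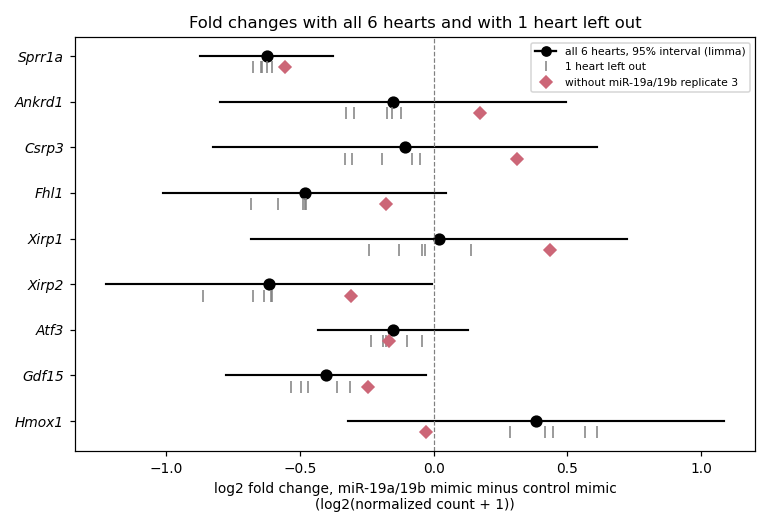
Log2 fold changes of the 9 genes, miR-19a/19b mimic minus control mimic on log2(normalized count + 1), with the 95% interval of limma from 6 hearts as black lines, values with 1 heart left out as grey ticks, and values without miR-19 replicate 3 as red diamonds. The diamonds of Ankrd1, Csrp3 and Hmox1 lie on the other side of 0 from the black points, and that of Sprr1a lies at -0.56, near its point at -0.62.

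The stress genes outside the sarcomere were expressed at lower levels, except for Hmox1. Atf3 (ENSMUSG00000026628, chr1:191170296-191218039 on the minus strand) had 652, 849 and 704 normalized counts in control mimic replicates 1, 2 and 3. It had 610.0, 694 and 672 in miR-19 replicates 1, 2 and 3. The groups overlapped, and replicate 3, at 1.03 of the mean of replicates 1 and 2, did not stand apart as it did for the sarcomere genes. The log2 fold change was -0.15 (SE 0.12), smaller than the spread between the controls, whose coefficient of variation was 13.9%.

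Gdf15 (ENSMUSG00000038508, chr8:70629393-70632456 on the minus strand) had 1547, 1449 and 1139.8 normalized counts in control mimic replicates 1, 2 and 3. It had 1175, 1134 and 829.9 in miR-19 replicates 1, 2 and 3. The lowest control was below the highest miR-19 heart, so the groups overlapped by 1 heart. The means were 1379 ± 213 and 1046 ± 189 (SD, n = 3 each), with a log2 fold change of -0.40 (SE 0.16), and -0.24 without replicate 3.

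Hmox1 (ENSMUSG00000005413, chr8:75093591-75100596 on the plus strand) had 11502, 11976.5 and 9549.7 normalized counts in control mimic replicates 1, 2 and 3. It had 10410.5, 11072 and 25299 in miR-19 replicates 1, 2 and 3. Replicates 1 and 2 lay within the control range, and replicate 3 was 2.36 times their mean and the highest heart. The log2 fold change of 0.38 (SE 0.31) was -0.029 without replicate 3, so 1 heart decides it. Hmox1 was the 1 gene of the 9 that was highest in replicate 3, while 7 were lowest there. Among all tested genes, 22.7% were highest and 23.2% lowest in that heart.

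The summed markers of several other cell types were also highest or lowest in replicate 3. The summed neutrophil markers were 1838, 1686 and 1525 normalized counts in control mimic hearts and 736, 1297 and 2389 in miR-19 replicates 1, 2 and 3. The macrophage sum was between 87656 and 103753 in control mimic hearts, and 72424, 83890.2 and 110066 in miR-19 replicates 1, 2 and 3. Both sums were highest in replicate 3, the heart with the most Hmox1, but gene by gene this held for 4 of 6 neutrophil and 3 of 9 macrophage markers, the latter being Cd68, C1qa and Lyz2. The fibroblast sum was between 645995 and 794817 in control mimic hearts and between 548927 and 898672 in miR-19 hearts, also highest in replicate 3, where 4 of 8 fibroblast markers were highest and 1, Dcn, was lowest. All 5 erythrocyte markers were lowest in replicate 3, with a sum of 1999 against 3078 to 4137 in the other hearts. The 14 skeletal muscle markers summed to 5224 in miR-19 replicate 1, which was 9.02 times the next highest heart. Endothelial and smooth muscle sums of the groups overlapped, and over the 9 marker lists the exact permutation p was between 0.4 and 1.0. The part of these differences in the values of the 9 genes was not tested. Because Sprr1a is known from skin, keratinocyte markers were looked at as well. Of 10, 5 were in the table, and these summed to between 142 and 219 normalized counts per heart, well under Sprr1a. The other 5, Krt1, Krt5, Krt6a, Flg and Dsg3, were not analysed here.

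**Figure D3:**
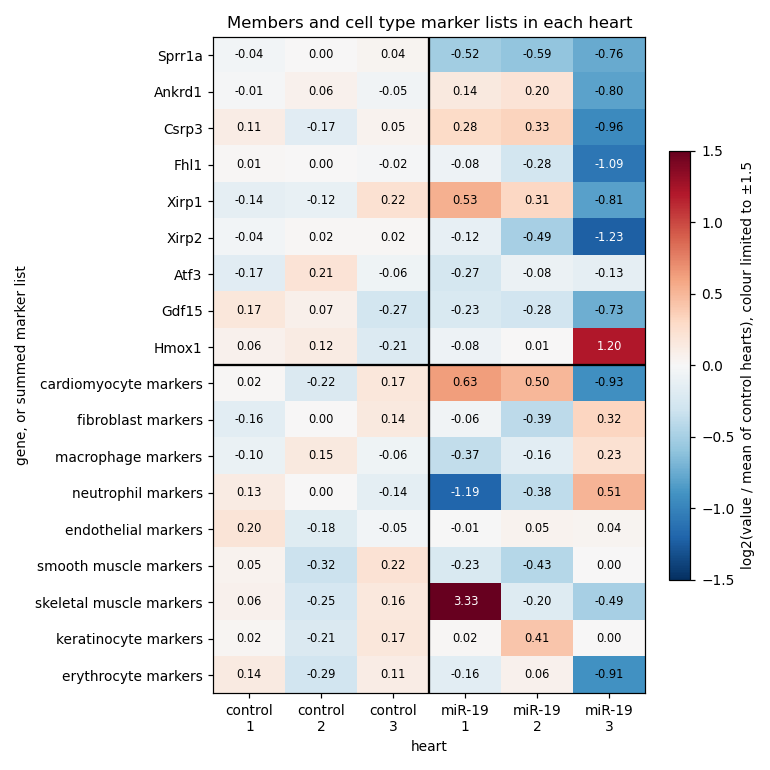
Log2 ratio of each heart to the mean of the control mimic hearts, for the 9 genes (above the line) and for the summed markers of each cell type (below it), with colour limited to ±1.5. In miR-19 replicate 3 the sarcomere genes and the cardiomyocyte markers are low and Hmox1 is high, and Sprr1a is low in all of the miR-19 hearts.

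Relative to the cardiomyocyte markers of the same heart, the picture of several genes changed. A marker index, the mean log2 level of the 14 markers set to 1 at the control mean, was 1.02, 0.852 and 1.152 in control mimic replicates 1, 2 and 3 and 1.585, 1.501 and 0.530 in miR-19 replicates 1, 2 and 3. Divided by this index, Sprr1a stood at 94.6%, 116.9% and 88.5% of the control mean in control mimic hearts. It stood at 43.6% and 43.9% in miR-19 replicates 1 and 2 and at 110.8% in replicate 3. Sprr1a per marker was thus low in the hearts rich in these markers and within the control range in the heart poor in them, and its groups overlapped on this scale. Xirp2 was the 1 gene of the 9 whose groups stayed apart per marker, at 57.4%, 47.0% and 79.9% in miR-19 replicates 1, 2 and 3 against 87.1% or more in the controls. Among all tested genes, 1.32% were apart in the lower and 1.35% in the higher direction on this scale. Csrp3 was between 76.8% and 97.4% per marker in miR-19 hearts, closer together than its normalized counts. Atf3, at 169.2%, and Hmox1, at 425.9%, were higher per marker in replicate 3 than in any other heart. With this scaling in limma, 0 of the 9 genes had an unadjusted p-value under 0.05, where 0.388% of all tested genes were lower and 0.374% were higher, and the log2 fold change of Sprr1a was -0.73 (SE 0.50).

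**Figure D4:**
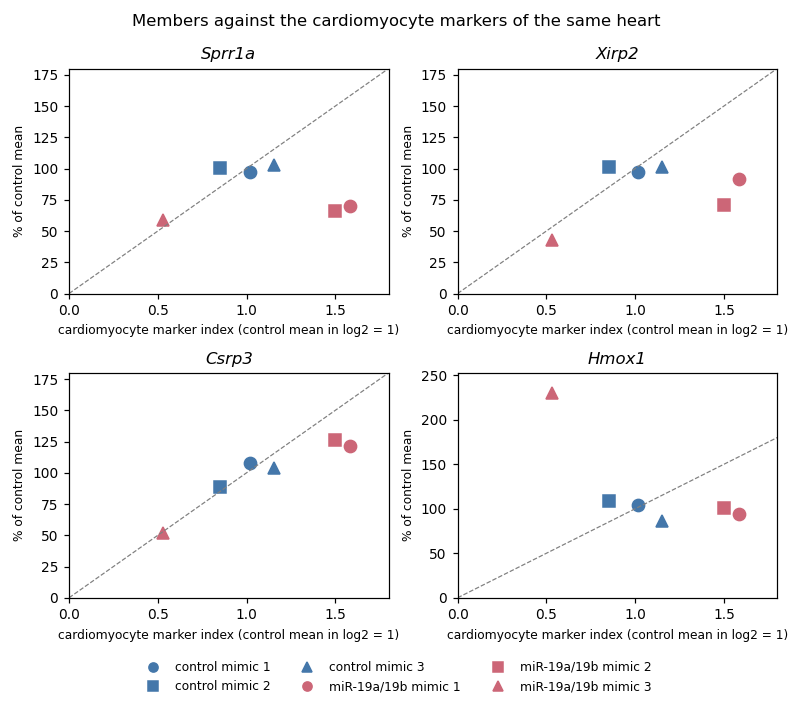
Level of Sprr1a, Xirp2, Csrp3 and Hmox1 in percent of the control mean against the cardiomyocyte marker index of the same heart, with 1 point per heart and a dashed line where both are proportional. The Csrp3 points run near the line in the controls and in miR-19 replicate 3, and below it in miR-19 replicates 1 and 2. Sprr1a is at 59.1% to 69.6% in the miR-19 hearts over the whole range of the index, and Hmox1 has 1 heart far above.

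The promoters of Sprr1a, Xirp2 and Fhl1, which were below the controls in every miR-19 heart, are shown with that of Ankrd1, which was not. Each runs from 250 bases before to 50 bases after a RefSeq start on GRCm38.p6, and capitals mark the motifs named below.
Sprr1a (chr3:92485832-92486131, minus strand): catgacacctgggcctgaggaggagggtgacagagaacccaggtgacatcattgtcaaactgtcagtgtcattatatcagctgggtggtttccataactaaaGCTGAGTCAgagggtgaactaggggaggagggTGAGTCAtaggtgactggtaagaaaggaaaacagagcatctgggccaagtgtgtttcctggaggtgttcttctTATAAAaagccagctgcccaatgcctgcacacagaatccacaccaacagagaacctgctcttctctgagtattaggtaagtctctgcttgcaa
Xirp2 (chr2:67445752-67446051, plus strand): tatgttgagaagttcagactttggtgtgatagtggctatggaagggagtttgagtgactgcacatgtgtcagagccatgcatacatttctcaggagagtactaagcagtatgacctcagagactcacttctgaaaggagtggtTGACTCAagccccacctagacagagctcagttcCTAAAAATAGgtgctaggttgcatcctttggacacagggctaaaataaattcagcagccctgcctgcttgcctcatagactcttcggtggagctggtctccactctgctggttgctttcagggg
Ankrd1 (chr19:36119795-36120094, minus strand): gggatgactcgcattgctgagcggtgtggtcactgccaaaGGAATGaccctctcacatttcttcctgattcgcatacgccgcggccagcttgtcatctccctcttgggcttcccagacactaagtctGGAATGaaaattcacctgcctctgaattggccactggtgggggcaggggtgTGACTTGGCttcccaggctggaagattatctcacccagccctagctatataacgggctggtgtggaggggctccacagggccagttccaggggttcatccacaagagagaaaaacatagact
Fhl1 (chrX:56779433-56779732, plus strand): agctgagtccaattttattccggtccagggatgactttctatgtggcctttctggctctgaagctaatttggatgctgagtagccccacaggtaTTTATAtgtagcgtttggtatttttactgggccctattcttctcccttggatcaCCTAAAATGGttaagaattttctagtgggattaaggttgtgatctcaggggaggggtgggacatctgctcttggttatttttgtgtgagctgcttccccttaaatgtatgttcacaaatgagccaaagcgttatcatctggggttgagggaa
Fhl1 (chrX:56786277-56786576, plus strand): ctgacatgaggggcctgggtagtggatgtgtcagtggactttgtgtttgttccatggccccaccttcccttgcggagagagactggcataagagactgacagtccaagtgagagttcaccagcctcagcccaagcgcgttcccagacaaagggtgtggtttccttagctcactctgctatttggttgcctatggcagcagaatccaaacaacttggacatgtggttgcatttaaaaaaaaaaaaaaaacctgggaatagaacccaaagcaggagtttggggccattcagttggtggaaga
The letters were searched on both strands in 32851 promoters of this length, 10 of which belong to 7 of the 9 genes, all but Xirp1 and Hmox1. The AP-1 motif TGANTCA, bound by Fos and Jun proteins, was in 7.81% of all promoters. Sprr1a held it at positions -146 to -140 and -116 to -110 from the start, and Xirp2 at -107 to -101, while neither promoter of Fhl1 held it. The core of the antioxidant response element, TGACNNNGC, was in 12.4% of all promoters, and in Sprr1a it covered the first AP-1 match, at -148 to -140. It was also in Ankrd1 at -72 to -64. The M-CAT motif CATTCC, bound by TEAD factors, was in 14.7% of all promoters, at -210 to -205 and -123 to -118 in Ankrd1 and also in Gdf15. The letters TATAAA of the TATA box were in 13.6% of all promoters, and at -43 to -38 in Sprr1a. In the first promoter of Fhl1 they were at -156 to -151 on the opposite strand, printed as TTTATA. The MEF2 motif was in 0.557%, at -74 to -65 in Xirp2 and also in Atf3. Promoters of Atf3 and Csrp3 held the half-site of the cAMP response element, TGACGT, which was in 7.51%, and the first promoter of Fhl1 held a CArG box, the site of serum response factor, at -102 to -93, which was in 1.63%. These matches describe letters and not binding.

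The genes around Sprr1a were examined in a list of its family and of gp130 signalling, of which 17 of 23 genes were tested. Of these, 0 were called by limma or DESeq2. At an unadjusted p-value under 0.05, 3 were lower and 1 was higher, where 2.63% of all tested genes were lower and 1.39% higher. The median log2 fold change was -0.14, against 0.00410 for all genes. Without replicate 3 the median was -0.21 over the 16 genes then tested. Lif, a cytokine that signals through gp130, had 135, 142 and 171 normalized counts in control mimic replicates 1, 2 and 3. It had 81.8, 109 and 77.8 in miR-19 replicates 1, 2 and 3, all below the controls, with a log2 fold change of -0.74 (SE 0.18, unadjusted p = 0.00311 and adjusted p = 0.877 in limma). Cebpb, a transcription factor of the acute phase response, was at 1661 ± 259 in control mimic and 2114 ± 171 in miR-19 hearts (SD, n = 3 each), a log2 fold change of 0.36 with groups that overlapped. Cebpd had a log2 fold change of 0.28 and Il6 one of -0.23, both smaller than the spread between hearts, and that of Il6 was -0.37 without replicate 3 and 0.16 without miR-19 replicate 1. The Sprr2 genes were near the limit of detection, with Sprr2a2 at 5.89 ± 3.0 and 1.33 ± 0.64 and Sprr2f at 3.72 ± 1.62 and 0.99 ± 0.11 normalized counts, and near-identical Sprr2 copies make these values uncertain.

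In a list of 19 genes of the border zone, the rim of surviving muscle next to the infarct, 15 were lower and 4 higher, with a median log2 fold change of -0.23, where 49.2% of all tested genes were lower. Without replicate 3, 9 were lower and 10 higher with a median of 0.03, and 13 of the 19 were lowest in that heart. Of the 19, 0 were called by limma or DESeq2. At an unadjusted p-value under 0.05, 1 was lower and 0 were higher, where 2.63% of all tested genes were lower and 1.39% higher. The lower gene was Nppa, which encodes atrial natriuretic peptide. Nppa had 2082, 2555 and 1447 normalized counts in control mimic replicates 1, 2 and 3, and 1317, 1178 and 702 in miR-19 replicates 1, 2 and 3. All the miR-19 hearts were below the controls, with a log2 fold change of -0.94 (SE 0.26, unadjusted p = 0.00605 and adjusted p = 0.954 in limma), between -1.16 and -0.66 when each heart was left out. Acta1, the fetal actin of the stressed heart, was at 20704 ± 4894 and 15188 ± 7865 normalized counts (SD, n = 3 each), a log2 fold change of -0.58 with groups that overlapped, and -0.09 without replicate 3. Myl4, an atrial myosin light chain, had a log2 fold change of 0.65 that came from 1 heart, with 306 normalized counts in miR-19 replicate 1 and between 50.4 and 86.9 in the others. Without that heart it was -0.11. The same heart had the high skeletal muscle markers, and their part in the Myl4 value was not tested.

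The partners of the sarcomere genes were mostly lowest in replicate 3. Of 24 tested genes of the Z-disc and of stretch signalling, 20 were lowest in that heart and 2 highest, and of 15 genes of the intercalated disc, 13 were lowest and 1 highest. In both lists 0 genes were called by limma or DESeq2, and 0 had an unadjusted p-value under 0.05 in either direction. The median log2 fold change was -0.06 in the Z-disc list, with 18 lower and 6 higher, and -0.02 in the intercalated disc list, with 9 lower and 6 higher. Without replicate 3 both turned, to 0.27 with 9 lower and 15 higher and to 0.11 with 2 lower and 13 higher. Then 11 Z-disc and 4 intercalated disc genes were higher and 0 lower at an unadjusted p-value under 0.05, where 8.39% of all tested genes were higher. At the adjusted threshold limma then called 3 Z-disc genes, Tcap, Bag3 and Fhl2, and 0 intercalated disc genes. Over all tested genes it then called 0.774% lower and 1.81% higher. Among Z-disc genes with a mean of at least 50, the 4 largest differences were in Ankrd2, a paralog of Ankrd1, with -0.48, Lmcd1 with -0.44, desmin (Des) with -0.38 and the small heat shock protein gene Hspb1 with -0.37. Without replicate 3 these were -0.05, -0.16, -0.08 and -0.13, all smaller in size. Ankrd2 had 143, 66.0 and 39.8 normalized counts in miR-19 replicates 1, 2 and 3, against 89.8 to 110 in the controls. Without miR-19 replicate 1 its log2 fold change was -0.96. Replicate 1 had the high skeletal muscle markers, and their part in the Ankrd2 value was not tested. Vinculin (Vcl), with -0.33, and α-T-catenin (Ctnna3), with 0.35, had the largest differences of the intercalated disc list, followed by Dsg2 with 0.29 and Dsc2 with 0.18. Their groups overlapped. Without replicate 3 they were -0.21, 0.74, 0.73 and 0.64.

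Atf3 and Gdf15 belong to wider stress programmes, in which few genes differed at the unadjusted threshold. Of 20 genes of the integrated stress response, 0 were called by limma or DESeq2, and the median was -0.06, or -0.10 without replicate 3. At an unadjusted p-value under 0.05, 1 was lower and 1 higher, where 2.63% of all tested genes were lower and 1.39% higher. The lower gene was Mthfd2, a mitochondrial folate enzyme, with 806, 798 and 653 normalized counts in control mimic hearts and 604, 629 and 606 in miR-19 hearts, a log2 fold change of -0.29 (SE 0.11). The higher gene was Cebpb, given above. Trib3, a target of Atf4, had a log2 fold change of -0.47, Ddit4 one of 0.33 and Vldlr one of 0.31, and their groups overlapped. Vldlr, a lipoprotein receptor gene, had 4287.5 and 4048 normalized counts in miR-19 replicates 1 and 2, 1566 in replicate 3 and 2100.2 to 2622 in the controls. Without replicate 3 its log2 fold change was 0.78 and limma called it, with an adjusted p of 0.00980 that was 0.999 or more with the other hearts left out and 1.0 with all 6. Of 20 immediate early genes, 10 were lower and 10 higher, with 0 called by limma or DESeq2, 0 at an unadjusted p-value under 0.05 and a median of 0.02. Among those with a mean of at least 50, the largest differences were in Egr2 with -0.43, Klf4 with 0.36, Fosb with 0.19 and Ier3 with -0.17. Without replicate 3, Klf4 was at 0.57 and was called by limma, Fosb at 0.06 and Ier3 at -0.02. In the list around Gdf15, 0 of 7 tested genes were called by limma or DESeq2 and 0 had an unadjusted p-value under 0.05. Ret, a co-receptor for Gdf15, had 162, 168 and 188 normalized counts in control mimic hearts and 203, 214 and 192 in miR-19 hearts. Its log2 fold change was 0.23 (SE 0.13). Gfral, another receptor gene of the list, was not among the deposited genes, and signalling by Gdf15 in these hearts was not tested. Mdm2 had one of -0.10, Cdkn1a one of 0.18 and Furin one of 0.14.

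Around Hmox1, 21 genes of the Nrf2 response and of haem and iron handling were tested. Of these, 12 were highest in miR-19 replicate 3, as Hmox1 was, and 3 were lowest there. In limma and DESeq2 0 were called. At an unadjusted p-value under 0.05, 0 were lower and 1 was higher, where 2.63% of all tested genes were lower and 1.39% higher. The median log2 fold change was 0.06, with 5 lower and 16 higher. Without replicate 3 this turned to 14 lower and 7 higher, with a median of -0.05. The higher gene was Cd163, the macrophage receptor for haemoglobin and haptoglobin, with 851, 579 and 991 normalized counts in control mimic replicates 1, 2 and 3. It had 1445, 1238 and 972 in miR-19 replicates 1, 2 and 3, a log2 fold change of 0.61 (SE 0.21). Cd163 was thus not highest in the heart with the most Hmox1. Biliverdin reductase B (Blvrb) was highest in replicate 3 with 1495 normalized counts, against 863 to 1085 in the other hearts. Its log2 fold change of 0.19 was -0.02 without that heart. Nqo1, a classic Nrf2 target, was lowest in that heart, with 420.1 against 563 to 809, and its log2 fold change of 0.15 was 0.46 without that heart, when limma called it. Haptoglobin (Hp) had a log2 fold change of -0.25 and ranged from 738 in miR-19 replicate 1 to 2480.1 in replicate 3. Without these hearts it was 0.20 and -0.67, respectively.

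The genes whose pattern over the 6 hearts was most like that of Sprr1a were looked for among 12729 genes with a mean of at least 50 normalized counts, by the root mean square difference of centred log2 values. The nearest were Zdhhc2 with 0.086, Ifitm10 with 0.097, Cx3cl1 with 0.098, Dio3 with 0.113 and 2200002D01Rik with 0.120, where the root mean square of Sprr1a itself is 0.321. Cx3cl1, which encodes the chemokine fractalkine, had 881, 894 and 833 normalized counts in control mimic hearts and 661, 608 and 599.9 in miR-19 hearts. Zdhhc2, a palmitoyltransferase gene, had 405, 488 and 486 in control mimic hearts and 339.99, 294 and 288 in miR-19 hearts. These genes were selected for their likeness, so their group differences are a description.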

How the data were processed

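Normalized counts were deposited for 26012 genes in 6 hearts. The authors aligned reads with STAR (2.5.1b) and counted them with HTSeq (0.6.0), and per the submitters' notes divided them by DESeq2 (1.10.1) size factors. This deposited signal was turned back into reads, which were whole for 100% of values within a tolerance of 0.05. The notes name mm9, but 82.7% of 25884 genes, and 7 of the 9 described, had the start and end of GENCODE M21 (GRCm38), the build used here. Deposited fold changes and p-values were not used. Columns of per-heart values not used numbered 0. Whether reads were counted by strand is not given in the sources used here, so values of overlapping genes are uncertain.

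Groups were compared with limma (3.58.1, R 4.3.3, trended prior) on log2(normalized count + 1) over 21126 genes with a mean of at least 1, with Benjamini-Hochberg adjustment over all of them. This scale understates changes of low genes. P-values set the difference between groups against the spread between hearts, which limma estimates in part from all genes. The study calls the hearts biological replicates. Alternatives were edgeR (4.0.16, quasi-likelihood, TMM) and DESeq2 (1.42.0) on recovered reads, other filters, a pseudocount of 0.1, scaling to total reads or to cardiomyocyte markers, a replicate block, and leaving out each heart. On simulated reads, 200 genes with a mean of at least 50 were changed 2-fold. Of these, limma recovered 83% with 14 other calls among 20642 genes, edgeR 83.5% with 18, and DESeq2 87% with 43 among 21123. Genes were drawn independently, without a shift of a whole heart such as that of replicate 3, so these shares may not hold for the real hearts. Chi-square per degree of freedom between replicate hearts was 9.49 to 123, beyond sampling noise.

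The 9 genes, the pathway lists and the marker lists were chosen with earlier results of these data known. Genes named are the 9, per pathway list the up to 4 with the largest absolute log2 fold change at a mean of at least 50 and any with an unadjusted p-value under 0.05, and the 5 nearest to Sprr1a. Transcripts of the 9 were aligned with BLAST to all others, and none had a near-identical copy.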

Additional observations from a re-analysis of the deposited data

How the results depend on the processing

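With each heart left out, between 0 and 547 of all genes and between 0 and 1 of the 9 were called. Without miR-19a/19b mimic replicate 3, 547 genes were called (164 lower, 383 higher), and 1 of the 9, Sprr1a (adjusted p = 0.0171 in limma, over all alternatives 0.000209 to 1.0). DESeq2 called 27 genes (26 lower, 1 higher), 1 of them Sprr1a. The other filters, pseudocount and scalings called 0 in limma and edgeR called 0, with 555 lower and 293 higher at an unadjusted p-value under 0.05 in the main test, 695 and 466 with no filter, 420 and 146 with at least 10 in every heart, and 82 and 79 after scaling to cardiomyocyte markers, which moved the median of all genes to -0.10. Of the 9, 5 kept their direction in all 14 alternatives (Sprr1a, Fhl1, Xirp2, Atf3 and Gdf15). Without miR-19a/19b mimic replicate 3 the log2 fold change was 0.17 for Ankrd1, 0.31 for Csrp3 and -0.029 for Hmox1. That of Xirp1 was -0.0032 scaled to total reads, -0.090 scaled to cardiomyocyte markers, -0.042 and -0.031 without control mimic replicates 1 and 2, and -0.24 and -0.13 without miR-19a/19b mimic replicates 1 and 2. With each heart left out, the range was -0.33 to 0.17 for Ankrd1, -0.33 to 0.31 for Csrp3, -0.24 to 0.43 for Xirp1 and -0.029 to 0.61 for Hmox1. The cause was not tested.

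The labels give the hearts only a replicate number and state no pairing. Deviations from the group mean had correlations of -0.0085, -0.0213 and -0.115 between same-numbered hearts. Between hearts of different number the correlations ran from -0.103 to 0.116. With 3 hearts a group, these values cannot decide whether hearts were paired. With the replicate block, 0 genes and 0 of the 9 were called in limma, with 434 genes lower and 207 higher at an unadjusted p-value under 0.05, and the log2 fold change of Sprr1a remained at -0.62 (adjusted p = 1.0). Leaving hearts out of the pathway lists was added after seeing the data. Without miR-19a/19b mimic replicate 3, limma called Bag3, Fhl2, Klf4, Nqo1, Tcap and Vldlr among the list genes. Over all tested genes it then called 0.774% lower and 1.81% higher. With any other heart left out it called 0 of the list genes. With 3 hearts a group, differences within the spread of replicate 3 could not be resolved.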
